A study of Mus musculus with 48 samples.

Results

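The 8 genes described here are 6 enzymes of cholesterol synthesis, Hmgcs1, Idi1, Fdft1, Sqle, Lss and Cyp51, and 2 regulators of their transcription, Srebf2 and Insig1. They were taken by gene symbol: each probe set of the array that the platform annotation assigns to 1 of these symbols and no other was included, which gave 8 of 18194 genes and 21 of the 45037 probe sets that are not array controls. No gene for the uptake of cholesterol is among the 8. RNA was measured on Affymetrix mouse expression arrays, where a probe set is the group of short probes read for 1 transcript, in 2 fibroblast lines of mouse embryos. In the KO line Zfp36 was disrupted on both chromosomes (Zfp36 -/-, also written TTP KO), and the WT line carried it intact (Zfp36 +/+). Both lines came from littermates at E14.5 (E, embryonic day) on a mixed 129/B6 background with heterozygous parents, and were made from the whole embryo without head and organs. The labels name 1 line of each genotype, so a difference between the lines cannot be told apart from any other difference between 2 separately derived lines. Both lines spent 16 h in 0.5% serum and then 90 min in 10% serum, before actinomycin D was added. The KO and WT groups were sampled at 0, 30, 60, 90 and 120 min of actinomycin D, so the cells at 0 min had received serum but no drug. For the drug's concentration, 5 µg/ml stands in the series text but 0.5 µg/ml in the source names, and it remains unknown which one applies. Each sample pooled 3 dishes, and 5 experiments on different days handled both lines side by side. All 10 groups held n = 5 arrays, apart from KO at 0 min (n = 4, no experiment 5) and KO at 60 min (n = 4, no experiment 4), 48 arrays in all. The arrays of a line are repeats of the same line, so p-values measure the spread between these arrays and not between embryos. The main fit took the times of 1 line in 1 experiment as independent, although they correlated (0.32 for slopes, 0.34 for group means). Its p-values over all times can therefore be too small for 5 experiments. Fits to experiments 4 and 5 alone rest on only 2 experiments, and their p-values can be too small in the same way.

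Zfp36 encodes tristetraprolin (TTP), which recognises AU-rich stretches of transcripts and recruits the machinery that degrades them. Cholesterol is built from acetyl-CoA through mevalonate, isoprenoid diphosphates, squalene and lanosterol. When sterols run low, the transcription factor SREBP2, the product of Srebf2, is carried from the endoplasmic reticulum to the Golgi apparatus, cut there and sent to the nucleus, where it binds sterol regulatory elements in the promoters of most genes of the pathway. Insig1 encodes a membrane protein that holds the SREBP precursor in the endoplasmic reticulum when sterols are plentiful. Actinomycin D blocks transcription, so that the loss of a transcript's signal afterwards reflects its decay. The array scale is relative to the other transcripts, so a signal that goes up after the drug need not be new RNA.

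Promoters of 6 of the 8 genes were found in the RefSeq promoter table of the GRCm38.p6 assembly. The 250 bases before the annotated start are shown for 5 of them, Hmgcs1 and Srebf2 because they hold a sterol regulatory element core, and Idi1, Lss and Cyp51 because a probe set of each was lower in KO at 0 min and at 120 min. The Hmgcs1 stretch lies at chr13:119690101-119690350 on the plus strand, Srebf2 at chr15:82147019-82147268 (plus), Idi1 at chr13:8885356-8885605 (plus), Lss at chr10:76531355-76531604 (plus) and Cyp51 at chr5:4104698-4104947 (minus). Capitals mark the sterol regulatory element core TCACCCCA and the CCAAT box, which reads ATTGG where it lies on the opposite strand.
Hmgcs1: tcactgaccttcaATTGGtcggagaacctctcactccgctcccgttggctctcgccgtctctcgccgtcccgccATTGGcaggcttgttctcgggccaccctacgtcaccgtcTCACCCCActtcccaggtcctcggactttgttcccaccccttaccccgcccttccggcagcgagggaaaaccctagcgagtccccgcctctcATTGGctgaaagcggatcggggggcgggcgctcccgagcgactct
Srebf2: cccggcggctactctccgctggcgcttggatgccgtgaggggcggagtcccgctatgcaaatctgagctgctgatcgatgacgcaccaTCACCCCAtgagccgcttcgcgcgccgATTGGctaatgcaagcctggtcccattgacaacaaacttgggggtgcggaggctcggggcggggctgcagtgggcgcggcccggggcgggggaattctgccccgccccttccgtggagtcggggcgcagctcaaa
Idi1: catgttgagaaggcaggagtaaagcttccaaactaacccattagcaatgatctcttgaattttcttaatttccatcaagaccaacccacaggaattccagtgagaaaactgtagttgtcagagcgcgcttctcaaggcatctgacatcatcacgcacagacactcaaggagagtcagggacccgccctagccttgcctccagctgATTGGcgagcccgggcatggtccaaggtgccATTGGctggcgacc
Lss: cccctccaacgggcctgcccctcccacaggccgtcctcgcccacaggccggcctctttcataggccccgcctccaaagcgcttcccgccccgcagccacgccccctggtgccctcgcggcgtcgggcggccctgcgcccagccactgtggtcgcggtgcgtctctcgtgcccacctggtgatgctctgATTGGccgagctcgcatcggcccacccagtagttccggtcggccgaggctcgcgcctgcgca
Cyp51: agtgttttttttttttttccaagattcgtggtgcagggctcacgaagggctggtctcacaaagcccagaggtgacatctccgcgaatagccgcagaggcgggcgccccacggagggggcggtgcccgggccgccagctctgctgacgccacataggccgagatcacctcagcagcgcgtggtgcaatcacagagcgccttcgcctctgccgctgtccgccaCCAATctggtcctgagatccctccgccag
The motifs were searched on both strands in windows of 300 bases, from 250 before to 50 after the start, and no match overlapped another. TCACCCCA stood 137 bases before the start of Hmgcs1 and 162 bases before that of Srebf2, which makes 2 of the 6 promoters, where 1.42% of 21237 promoters of protein-coding genes hold it. A CCAAT box was present in 6 of 6 promoters, against 38.2% of all promoters. Hmgcs1 held 4 of them, 1 of which lies after the start, Idi1 held 2, and Srebf2, Lss, Cyp51 and Insig1 held 1 each. The E-box CACGTG was present in 1 of 6, that of Insig1, against 7.84% of all promoters. These matches are letters in a window and were not tested as binding sites. The motifs were chosen after these promoters were seen, so the shares beside those of all promoters are a description and test no enrichment.

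Signals are given as the authors' log2 values, on which the array medians lay between 8.47 and 8.56. The 5th percentile of the arrays lay between 8.02 and 8.13, and values near it carry little or no signal. No further background was subtracted for the percentages of a starting signal given below, so they are not percentages of RNA. Of 12 fibroblast markers, 10 lay above the highest array median. Thy1 and Fap did not, and 0 of 4 endothelial, 1 of 5 epithelial and 1 of 5 macrophage and blood markers did. Neural (3 of 4), adipocyte (2 of 3), hepatocyte (2 of 4) and muscle markers (1 of 4) gave list means of 8.33 to 9.10 in KO arrays and 8.47 to 9.17 in WT arrays. Over all arrays the neural marker Tubb3 averaged 9.76 in KO and 8.91 in WT, and the hepatocyte marker Afp 8.73 in KO and 9.56 in WT. The adipocyte markers Pparg and Fabp4 averaged 8.50 and 9.76 in KO, against 8.95 and 10.01 in WT. The fibroblast marker Pdgfra averaged 10.22 in KO and 8.92 in WT. Their part in the results below was not tested. Zfp36 itself had a signal of 9.51 ± 0.16 in KO (SD, n = 4) and 9.86 ± 0.16 in WT (SD, n = 5) at 0 min, a difference of -0.35 (limma adjusted p = 0.00245). The position of its probe set relative to the disrupted stretch was unknown, so this value does not check the genotype. In whole-culture RNA, fewer cells with a transcript and less of it per cell cannot be told apart.

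Tests were run with limma on the 27500 probe sets that exceeded their array's median in at least 4 arrays. A call means an adjusted p under 0.05 over all of them (Benjamini-Hochberg, two-sided). Of the 21 probe sets of the 8 genes, 18 passed this filter. The other 3, a pair of Fdft1 probe sets and 1 of Lss, had group means between 8.10 and 8.40, near the lowest signals of the arrays. The probe set with the highest mean leads for its gene, and levels were not compared between probe sets.

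The 8 genes did not move as 1 group. The 4 bright probe sets of Hmgcs1 were not called between the lines at 0 min and fell after actinomycin D in WT. In KO their fitted change was smaller and not called, although the leading probe set was with the experiment as a block, and by 120 min these 4 were 1.20-fold to 1.31-fold higher in KO. The KO minus WT difference in slope was called for 3 of these 4. For the leading one the call held in 2 of the 5 fits that left out 1 experiment. Without the block, the line difference in the 120 minus 0 min change was called for 0 of the 18 probe sets. Sqle fell in both lines and was lower in KO at 0 min, a call that leaving out 1 experiment could end. In the fit without a block, Idi1, Lss and Cyp51 were lower in KO at 0 min by 1 probe set each, not the leading one. These genes held nearly level through the drug. With all arrays and no block, Fdft1 and Insig1 were not called in any comparison of the lines, and Srebf2 by 1 of its 2 probe sets.

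**Figure D1:**
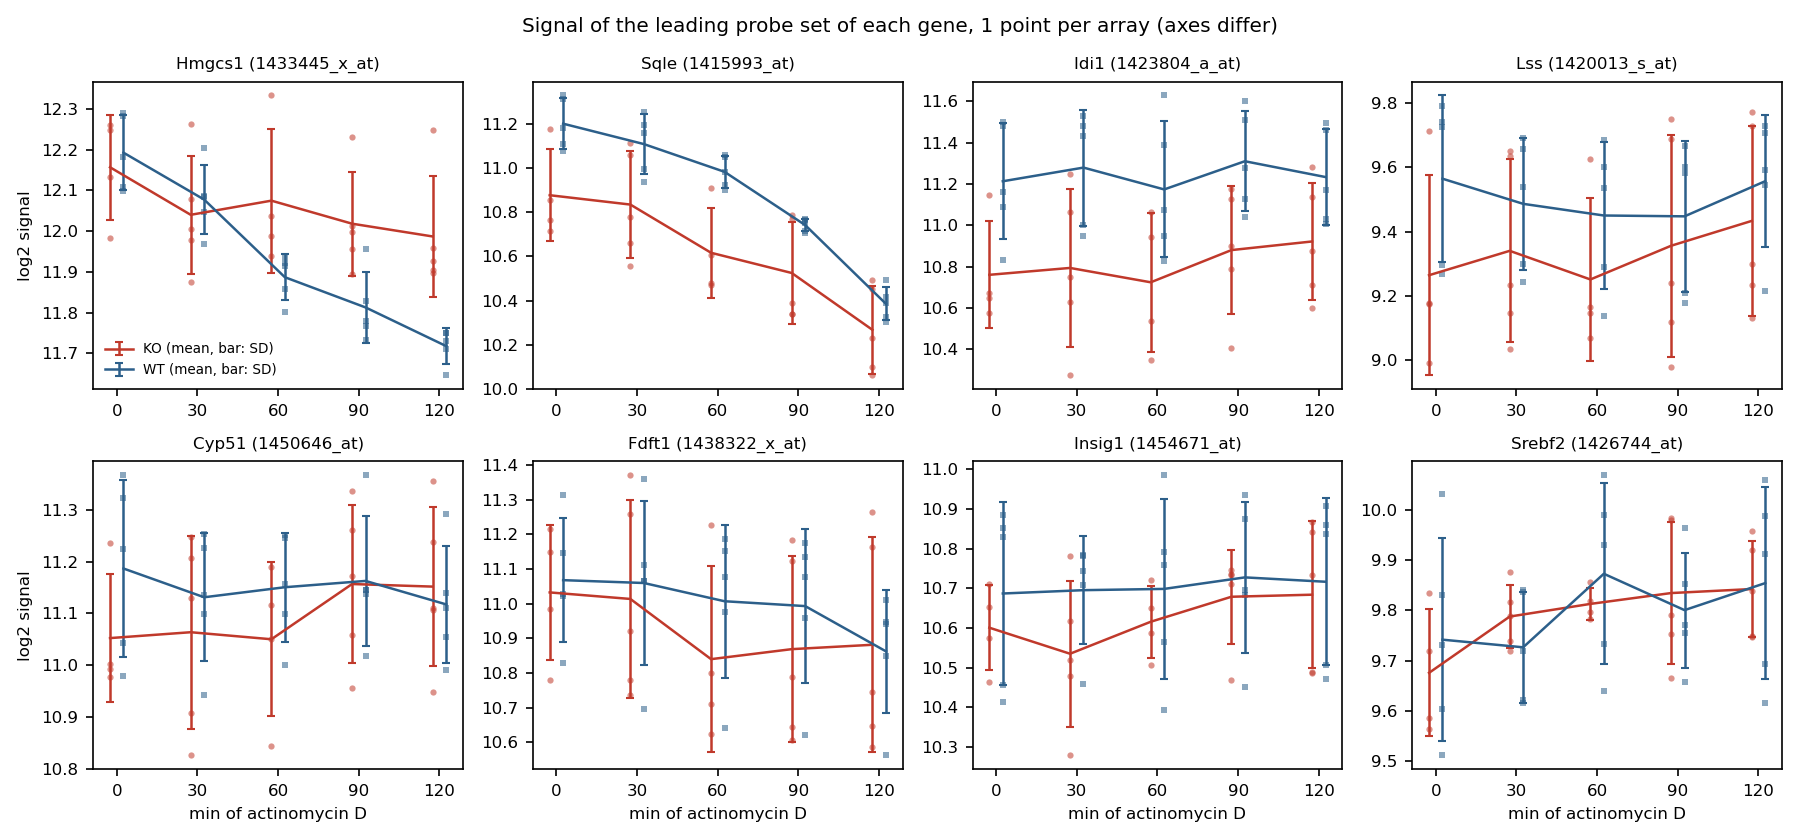
Log2 signal of the leading probe set of each gene against minutes of actinomycin D, with 1 point per array, lines through the group means and SD bars (KO red circles, WT blue squares; n = 5, or 4 for KO at 0 and 60 min). Hmgcs1 ends at 11.99 in KO and 11.72 in WT, Sqle falls in both lines, and Idi1 runs lower in KO at all 5 times.

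Hmgcs1 encodes the cytosolic HMG-CoA synthase, which makes HMG-CoA from acetoacetyl-CoA and acetyl-CoA at the entry to the mevalonate pathway. At 0 min the leading probe set of Hmgcs1, 1433445_x_at, gave 12.26, 12.25, 11.98 and 12.13 in the 4 KO arrays, and 12.28, 12.11, 12.10, 12.29 and 12.18 in the 5 WT arrays. The groups overlapped, and the difference was -0.04 ± 0.07 (SE; limma adjusted p = 0.791). At 120 min the Hmgcs1 arrays read 12.25, 11.90, 11.93, 11.96 and 11.90 in KO, against 11.65, 11.75, 11.75, 11.71 and 11.73 in WT. Each KO array now lay above each WT array, by 0.27 ± 0.07 on average (adjusted p = 0.00236). The KO means of Hmgcs1 over the 5 times were 12.16, 12.04, 12.07, 12.02 and 11.99, and the WT means were 12.19, 12.08, 11.89, 11.81 and 11.72. From highest to lowest, the 10 group means of Hmgcs1 thus open with both lines at 0 min and close with WT at 60, 90 and 120 min. The SDs ran from 0.04 to 0.18, and the means of neighbouring times in KO, like those of WT at 60 and 90 min, differed by less than the larger SD of the pair.

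As a line fitted through the 5 times, the slope of Hmgcs1 1433445_x_at was -0.07 ± 0.03 log2 per h in KO (SE; limma adjusted p = 0.0981) and -0.24 ± 0.03 in WT (adjusted p = 4.67e-09). Over 120 min the signal of Hmgcs1 reached 88.9% of its start in KO (adjusted p = 0.0956) and 71.9% in WT (adjusted p = 5.79e-07). With the experiment as a block the KO fall was also called, as a slope (-0.07, adjusted p = 0.0195) and over 120 min (-0.16, adjusted p = 0.0152). The slope difference, KO minus WT, was 0.17 ± 0.04 log2 per h (adjusted p = 0.0294). Among the 18 probe sets, 3 were called above 0 for this difference and 0 below, all 3 of Hmgcs1, where 0.785% of all 27500 were called above 0. At an unadjusted p under 0.05 the counts were 4 and 0. The other pair called, 1433444_at and 1433443_a_at, had slope differences of 0.18 (adjusted p = 0.0227) and 0.19 (adjusted p = 0.0332). For the remaining bright probe set of Hmgcs1, 1433446_at, the difference was larger but its error too, at 0.25 ± 0.08 (adjusted p = 0.13). With the experiment as a block all 4 were called, with adjusted p = 0.000369 for the leading probe set and 0.000312 for 1433446_at.

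By experiment, the slope difference of Hmgcs1 1433445_x_at was 0.29, 0.07, 0.15, 0.21 and 0.17 log2 per h in experiments 1 to 5. It lay above 0 in 5 of 5 experiments for each of the 4 bright probe sets of Hmgcs1, for which an exact sign-flip permutation test over the 5 experiments gives p = 0.0625 (two-sided), the smallest it can give. The call of the Hmgcs1 1433445_x_at slope difference was lost in 3 of the 5 fits without 1 experiment. The difference was 0.17 without experiment 3 (limma adjusted p = 0.0873), 0.16 without experiment 4 (adjusted p = 0.234), and 0.18 without experiment 5 (adjusted p = 0.0836). Experiments 1 to 3 alone did not give a call either (0.17, adjusted p = 0.251), whereas experiments 4 and 5 alone did (0.18, adjusted p = 0.0135). Its size stayed between 0.15 and 0.20 when any 1 experiment was left out. The KO arrays of experiment 1 read high for Hmgcs1, and without that experiment the difference was 0.15 and called (adjusted p = 0.0184). It was not called with quantile normalization (0.15, adjusted p = 0.0764) or without the 0 min arrays (0.19, adjusted p = 0.304). For 1433444_at of Hmgcs1 the call was lost without experiment 3, 4 or 5 (0.17, 0.17 and 0.19), and for 1433443_a_at without experiment 1, 2, 4 or 5 (0.17, 0.21, 0.17 and 0.19). Both were also not called with experiments 1 to 3, with quantile normalization and without 0 min.

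At 120 min the other 3 bright probe sets of Hmgcs1 were also higher in KO than in WT, by 0.29 (1433443_a_at, limma adjusted p = 0.0029), 0.27 (1433444_at, adjusted p = 0.00239) and 0.39 (1433446_at, adjusted p = 0.0128). The difference for 1433446_at was not called without experiment 2, at 0.33 (adjusted p = 0.109). Each KO array lay above each WT array in all 4, which makes 4 of 18 probe sets of the 8 genes, where 12.7% of all probe sets had such a separation. All 4 belong to 1 of the 8 genes and share a source sequence, so they are repeat reads and not separate cases. Experiment 1 gave the highest KO value of Hmgcs1 at 120 min, 12.25, and without it the difference for 1433445_x_at was 0.19 and still called. Averaged over the 5 times the 4 probe sets were higher in KO by 0.11 to 0.18. For the leading probe set that difference was 0.14 with experiments 1 to 3 (adjusted p = 0.0215), against 0.08 with experiments 4 and 5 (adjusted p = 0.0237). Without experiment 1 it was 0.08, and it was still called. For 1433446_at of Hmgcs1 the call was lost without experiment 2 (0.16, adjusted p = 0.0586) and with experiments 4 and 5 alone (0.08, adjusted p = 0.149). For 1433443_a_at it was lost without experiment 1 (0.06, adjusted p = 0.0786), with experiments 4 and 5 alone (0.06, adjusted p = 0.0735) and with line and experiment as a random block (0.11, adjusted p = 0.0618).

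The drug-time change itself was also compared between the lines at its end points. The KO minus WT difference in the 120 minus 0 min change of Hmgcs1 was between 0.30 and 0.47 for the 4 bright probe sets, and limma called 0 of 18 probe sets for it, where 0.709% of all were called in either direction. At an unadjusted p under 0.05, 4 lay above 0 and 1 below. With the experiment as a block, the 4 bright probe sets of Hmgcs1 were called, 1433445_x_at with 0.31 and adjusted p = 0.0107.

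**Figure D2:**
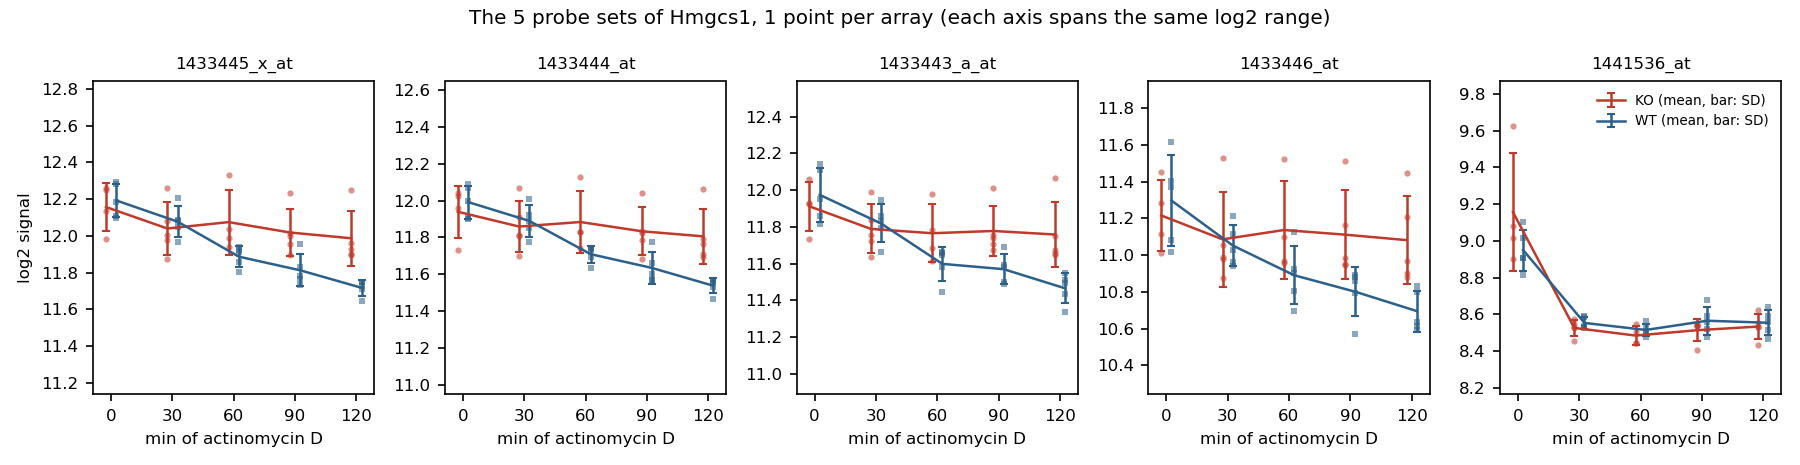
Log2 signal of the 5 Hmgcs1 probe sets against minutes of actinomycin D, 1 point per array with group means and SD bars (KO red circles, WT blue squares), each axis spanning the same log2 range. The 4 bright probe sets share the same course, with the KO arrays above the WT arrays at 120 min, while 1441536_at drops between 0 and 30 min to about 8.5 in both lines.

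The fifth probe set of Hmgcs1, 1441536_at, is dimmer and behaved differently from the other 4. It gave 9.63, 9.08, 8.90 and 9.02 in KO at 0 min, against 9.02, 8.81, 8.91, 8.91 and 9.10 in WT. At 30 min the arrays read between 8.46 and 8.58 in KO and between 8.53 and 8.59 in WT, which is lower than every array of their line at 0 min. The fall over the 30 min was -0.63 ± 0.07 in KO (SE; limma adjusted p = 1.82e-08) and -0.40 ± 0.07 in WT (adjusted p = 6.93e-05). With 1 experiment left out it ran from -0.72 to -0.48 in KO and from -0.44 to -0.37 in WT, called in 5 of 5 fits. Probe set 1441536_at was the 1 of the 18 called for this early change in either line, where 1.25% of all probe sets fell in KO and 1.77% in WT. From 30 to 120 min its group means stayed between 8.48 and 8.57. At 0 min it was higher in KO by 0.21 (adjusted p = 0.0252), which without experiment 1, whose KO array read 9.63, was 0.07 (adjusted p = 0.414). Without experiment 2 it was 0.20 and not called (adjusted p = 0.101). Experiments 4 and 5 hold 1 KO array at 0 min, which read 9.02. Over the 10 group means its correlation with the other 4 probe sets of Hmgcs1 was 0.51 to 0.60, against 0.98 to 1.00 among those 4, as a description. The platform annotation gives it another source sequence, and where its probes lie in the gene was not determined here.

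Idi1 encodes the isomerase that converts isopentenyl diphosphate to dimethylallyl diphosphate, the building blocks of all isoprenoids. Over all times it was lower in KO by both probe sets, and its change after actinomycin D was not called in either line. Probe set 1451122_at of Idi1 gave 10.66, 10.63, 10.70 and 10.97 in KO at 0 min, against 11.42, 11.11, 11.10, 11.40 and 11.21 in WT. No KO array reached the lowest WT array, and the difference was -0.51 ± 0.12 (SE; limma adjusted p = 0.00153), a 1.42-fold lower signal in KO. At 120 min Idi1 1451122_at gave 10.75, 10.65, 10.62, 11.08 and 11.02 in KO, and 11.36, 11.04, 11.15, 11.40 and 11.41 in WT. The highest KO array overlapped the lowest WT array there, with a difference of -0.45 ± 0.12 (adjusted p = 0.00258). The slope of Idi1 was 0.05 log2 per h in KO and 0.01 in WT, neither past the threshold, with a slope difference of 0.04 (95% interval -0.10 to 0.18).

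The leading probe set of Idi1, 1423804_a_at, had nearly the same difference at 0 min, -0.45, but a wider spread, with an SD of 0.26 in KO and 0.28 in WT, and was not called (limma adjusted p = 0.0714). With the experiment as a block Idi1 1423804_a_at was called at 0 min (-0.39, adjusted p = 9.4e-05) and at 120 min (-0.31, adjusted p = 0.000549, against 0.178 without the block). Over all times both probe sets of Idi1 were lower in KO, by 0.50 (1451122_at, adjusted p = 4.75e-11) and 0.43 (1423804_a_at, adjusted p = 1.6e-05). By experiment the Idi1 1451122_at difference was -0.65, -0.46, -0.54, -0.42 and -0.35, below 0 in 5 of 5 (exact sign-flip permutation p = 0.0625, the smallest possible).

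Fdft1 encodes squalene synthase, which joins a pair of farnesyl diphosphates to squalene. The leading probe set of Fdft1, 1438322_x_at, gave 10.98, 10.78, 11.22 and 11.15 in KO at 0 min and 11.31, 10.83, 11.02, 11.15 and 11.03 in WT. The groups overlapped at each of the 5 times. Over all times the Fdft1 difference was -0.07 ± 0.07 (SE; limma adjusted p = 0.388), with a 95% interval of -0.20 to 0.06. This mean covered experiments that went opposite ways. Fdft1 1438322_x_at differed by -0.40, KO minus WT, in experiment 1, but by 0.10 in experiment 4 and 0.21 in experiment 5. Experiments 1 to 3 alone gave -0.18 (adjusted p = 0.0367), whereas experiments 4 and 5 alone gave 0.14 (adjusted p = 0.00346). Probe set 1448130_at of Fdft1 gave 0.21 in experiments 4 and 5 (adjusted p = 0.000188). The slopes of Fdft1 1438322_x_at were -0.09 in KO and -0.10 in WT. Neither passed the threshold in the fit without a block, and the KO slope did with it (-0.10, adjusted p = 0.0478).

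Sqle encodes squalene epoxidase, a rate-limiting enzyme of the sterol branch. Sqle had the largest fall over 120 min of the 8 leading probe sets in both lines. At 0 min its probe set 1415993_at gave 10.85, 10.77, 10.71 and 11.18 in KO, against 11.31, 11.18, 11.11, 11.33 and 11.07 in WT. At 120 min it gave 10.23, 10.10, 10.06, 10.45 and 10.49 in KO, against 10.33, 10.49, 10.42, 10.30 and 10.39 in WT. Each array at 120 min lay below each array of its line at 0 min. The signal of Sqle fell by 0.61 on the log2 scale in KO, to 65.6% of its start (limma adjusted p = 2.29e-05), and by 0.81 in WT, to 56.8% (adjusted p = 1.07e-08). Nearly all of this came after 30 min: the change over the first 30 min was -0.04 in KO and -0.09 in WT. The slope of Sqle was -0.31 log2 per h in KO and -0.40 in WT, and the slope difference of 0.09 (95% interval -0.04 to 0.22, adjusted p = 0.754) was not past the threshold.

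The level of Sqle at 0 min was lower in KO by 0.32 ± 0.11 (SE; limma adjusted p = 0.0199), and the difference with experiments 1 to 3 alone was -0.42 (adjusted p = 9.56e-05). Later experiments hold 1 KO array of Sqle at 0 min, 11.18 in experiment 4, against 11.33 in WT of that experiment, too few for a comparison of their own. Leaving out experiment 1, 2 or 3 ended the call, with values of -0.29 each (adjusted p = 0.132, 0.0896 and 0.0864). Averaged over the times that both lines have, Sqle differed by -0.37, -0.41, -0.38, -0.01 and 0.00 in experiments 1 to 5. At 120 min the lines differed by -0.12 (adjusted p = 0.389).

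Lss encodes lanosterol synthase, which closes the rings of the sterol skeleton. Probe set 1426913_at of Lss, whose group means lay between 8.73 and 9.15, gave 8.83, 8.61, 8.73 and 8.92 in KO at 0 min, against 9.37, 9.12, 8.92, 9.27 and 8.99 in WT. Every KO array was at or under the lowest WT array, and the difference was -0.36 ± 0.09 (SE; limma adjusted p = 0.00179). At 120 min it was -0.23 (adjusted p = 0.0325), a call lost without experiment 1, 3 or 5 (-0.22, -0.23 and -0.22). Over all times Lss 1426913_at was lower by 0.32 in KO (adjusted p = 1.51e-09), by 0.34 in experiments 1 to 3 and by 0.27 in experiments 4 and 5. The leading probe set of Lss, 1420013_s_at, gave a smaller difference with a wider spread. It was -0.30 at 0 min (adjusted p = 0.205, and 0.011 with the experiment as a block, at -0.25) and -0.17 over all times (adjusted p = 0.0432). Without experiment 1, 2 or 3 the difference of Lss 1420013_s_at over all times was not called (-0.10, -0.16 and -0.19, adjusted p = 0.403, 0.061 and 0.0768), nor with line and experiment as a random block (-0.15, adjusted p = 0.136) or without the filter (adjusted p = 0.0651). With experiments 4 and 5 alone it was 0.02 (adjusted p = 0.621). Neither probe set changed past the threshold over 120 min, with -0.01 in WT for both and 0.12 and 0.17 in KO.

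Cyp51 encodes lanosterol demethylase, the cytochrome P450 that acts on lanosterol. Its 3 probe sets did not give the same answer. Probe set 1422533_at of Cyp51 gave 10.02, 10.06, 9.96 and 10.22 in KO at 0 min, against 10.63, 10.51, 10.40, 10.69 and 10.55 in WT. The lines did not overlap at 0, 30, 60 or 90 min. The difference was -0.49 ± 0.11 at 0 min (SE; limma adjusted p = 0.000504), a 1.40-fold lower signal in KO, and -0.31 ± 0.10 at 120 min (adjusted p = 0.0189). The call at 120 min was lost without experiment 1, 2 or 3 (-0.33, -0.30 and -0.28). In the leading probe set of Cyp51, 1450646_at, the same RNA gave 10.99, 11.00, 10.98 and 11.24 in KO at 0 min and 11.37, 11.22, 11.04, 11.32 and 10.98 in WT. The groups overlapped, the difference at 0 min was -0.13 (95% interval -0.32 to 0.05, adjusted p = 0.324), and over all times it was -0.05 (adjusted p = 0.259). Probe set 1422534_at of Cyp51, with group means between 8.63 and 8.84, was lower in KO over all times by 0.13 (adjusted p = 3.23e-05), and its value at 0 min was -0.14 (adjusted p = 0.0698). That value of Cyp51 1422534_at was called with the block (-0.14, adjusted p = 0.00579), with experiments 1 to 3 (-0.17, adjusted p = 0.0213), without experiment 4 (-0.16, adjusted p = 0.0324) and with line and experiment as a random block (-0.13, adjusted p = 0.0444). All 3 were annotated to the same transcript record, and which of them measures the transcript better was not tested. The time courses were nearly flat. The highest slope of Cyp51 was 0.11 log2 per h for 1422533_at in KO, called with the block (0.10, adjusted p = 0.00364) and not without it (adjusted p = 0.082).

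Among the regulators, Srebf2 encodes SREBP2, and its leading probe set was not called in any comparison with all arrays and no block. The leading probe set of Srebf2, 1426744_at, gave 9.72, 9.56, 9.59 and 9.84 in KO at 0 min and 10.03, 9.73, 9.51, 9.83 and 9.60 in WT. At 120 min it gave 9.96, 9.75, 9.84, 9.92 and 9.75 in KO, and 10.06, 9.62, 9.99, 9.91 and 9.69 in WT. The groups overlapped at all 5 times, with a difference over all times of -0.01 (95% interval -0.09 to 0.07, limma adjusted p = 0.875). Probe set 1452174_at of Srebf2 was lower in KO over all times by 0.11 (adjusted p = 0.00902), below 0 in 5 of 5 experiments. Its difference in experiments 4 and 5 was -0.02 (adjusted p = 0.675), without experiment 1 it was -0.07 (adjusted p = 0.112), without experiment 3 it was -0.09 (adjusted p = 0.0538), and with line and experiment as a random block the call was lost too (-0.11, adjusted p = 0.157).

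Insig1, which encodes the sterol-dependent anchor of the SREBP precursor, was measured by 1 probe set, 1454671_at. It gave 10.57, 10.71, 10.46 and 10.65 in KO at 0 min and 10.83, 10.88, 10.41, 10.85 and 10.46 in WT, and 10.87, 10.84, 10.49, 10.73 and 10.49 in KO at 120 min against 10.86, 10.47, 10.91, 10.84 and 10.51 in WT. Groups overlapped at every time. The difference over all times was -0.08 ± 0.05 (SE; limma adjusted p = 0.164), with a 95% interval of -0.18 to 0.02, and the change over 120 min was 0.08 in KO and 0.03 in WT. The SD of Insig1 within groups reached 0.23, so that differences of this size were not separable here.

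Counted over the 18 probe sets of the 8 genes, the calls in each direction were set beside those of all 27500. At 0 min, 4 were lower in KO (Idi1, Lss, Cyp51 and Sqle by 1 probe set each), where 11.9% of all were, and 1 was higher (Hmgcs1 1441536_at), where 13.4% were. Among the 8 leading probe sets, 1 was lower (Sqle) and 0 were higher. With the experiment as a block 8 were called at 0 min in place of 5. In 3 of 18, each KO array lay below each WT array at 0 min, against 8.34% of all probe sets. At 120 min 3 were lower in KO (background 13.4%) and 4 higher, all of Hmgcs1 (background 18.7%). Over all times 8 were lower (background 25.6%) and 4 higher, again all of Hmgcs1 (background 27.3%). The median difference over all times was -0.08 for the 18 probe sets and -0.01 for all probe sets tested. In KO the slope was called below 0 for 2 of 18 (Sqle and Hmgcs1 1441536_at; background 12.3%) and above 0 for 0 (background 15.0%). At an unadjusted p under 0.05 limma gave 3 below and 2 above 0 in KO, and with the block 7 were called. The added 5 were Hmgcs1 1433445_x_at, Fdft1 1438322_x_at and 1448130_at (-0.11, adjusted p = 0.0299), which fell, and Cyp51 1422533_at and 1422534_at (0.06, adjusted p = 0.00841), which rose relative to the array. In WT it was called below 0 for 6 (Sqle and the 5 probe sets of Hmgcs1; background 15.1%) and above 0 for 0 (background 13.9%, and 0 at an unadjusted p under 0.05). The change over 120 min was called below 0 for 2 of 18 in KO (background 10.6%), where 5 were called with the block (also Hmgcs1 1433445_x_at below 0, and Cyp51 1422533_at and 1422534_at above 0 by 0.16 and 0.10), and for 6 in WT (background 14.0%).

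**Figure D3:**
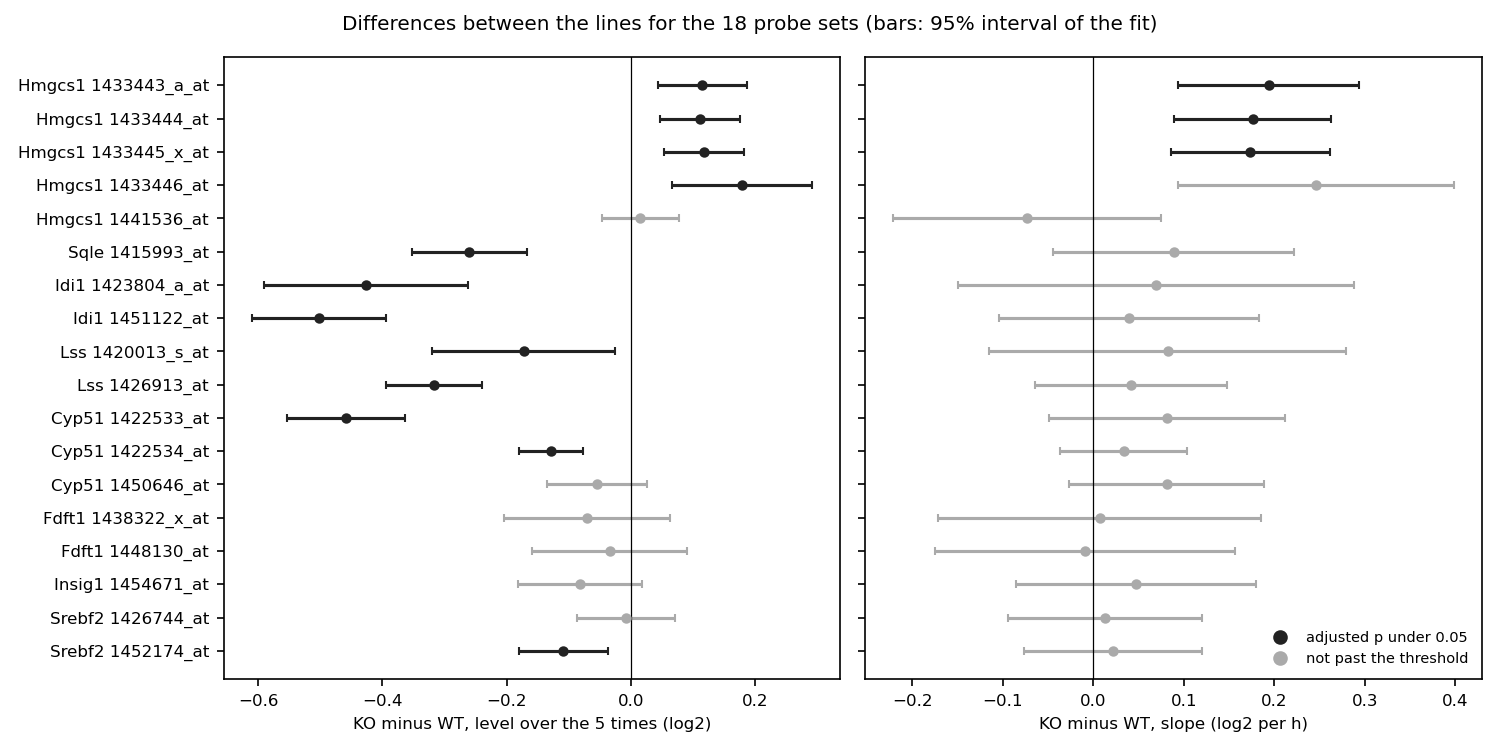
KO minus WT differences of the 18 probe sets with their 95% intervals, in level over the 5 times (left, log2) and in slope (right, log2 per h), dark where the adjusted p was under 0.05 and grey otherwise. In level 4 Hmgcs1 probe sets lie above 0 and 8 probe sets of other genes below, and in slope 3 Hmgcs1 probe sets are called.

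For Idi1, Lss and Fdft1 the range between experiments was wider than the KO minus WT difference over all times (-0.43, -0.17 and -0.07). A range of 5 means and a difference of means are unlike measures. The experiment mean of Idi1 ranged over 0.70 in KO and 0.52 in WT, that of Lss over 0.68 in KO and 0.50 in WT, and that of Fdft1 over 0.58 in KO and 0.51 in WT (leading probe sets, log2). Experiment 2 was lowest for Idi1, Fdft1 and Lss in both lines. Experiment 4 was highest for 5 of the 8 genes in KO, and experiment 1 for 5 of the 8 in WT. The range of Hmgcs1 was smaller, 0.30 in KO and 0.13 in WT. What set the experiments apart was not tested.

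**Figure D4:**
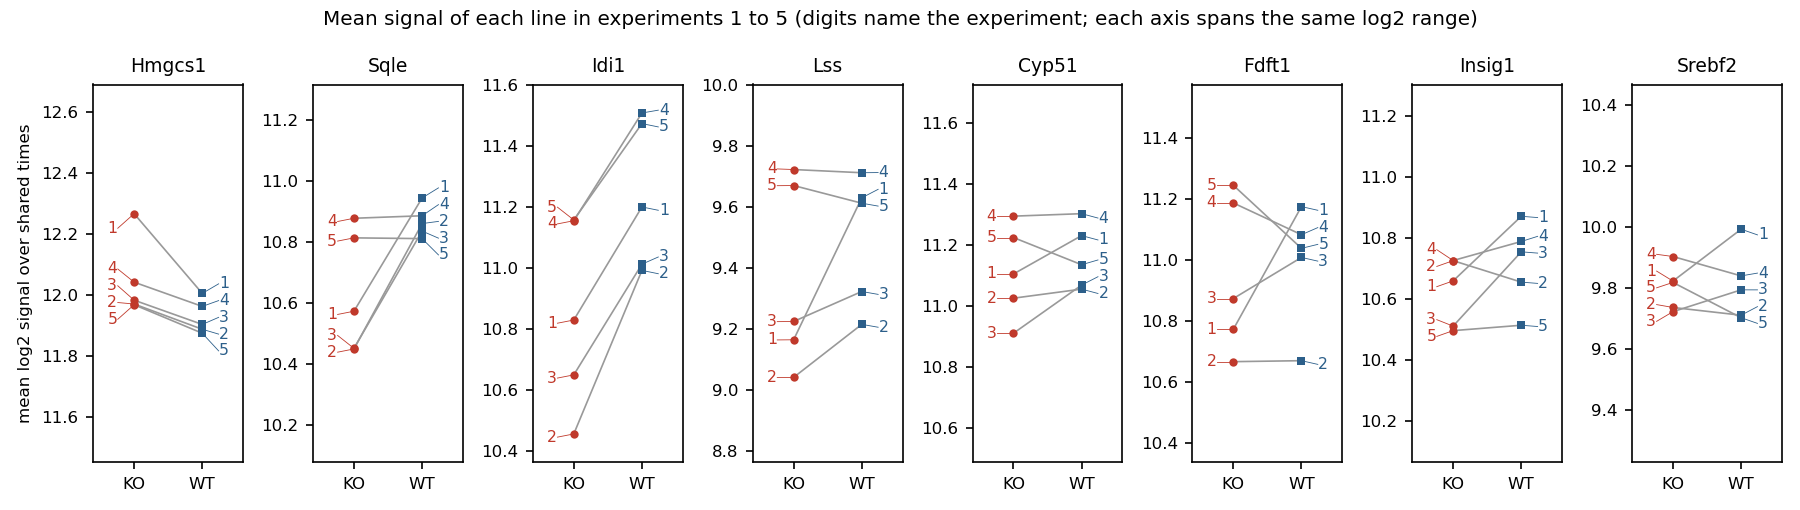
Mean log2 signal of each line in experiments 1 to 5, over the times that both lines have in that experiment, for the leading probe set of each gene (KO circles left, WT squares right, digits naming the experiment, each axis spanning the same log2 range). Hmgcs1 is higher in KO in 5 of 5 experiments and Idi1 lower in 5 of 5, whereas the lines joining the Fdft1 points go both up and down.

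Other genes of the pathway were taken as lists. Of 15 other enzymes of cholesterol synthesis, 13 had a probe set with a single symbol, and these were tested by the leading probe set. At 0 min 0 of 13 were higher in KO, where 13.4% of all probe sets were, and 4 were lower, where 11.9% were. They were Hsd17b7 (-0.74), Sc5d (-0.45), Ebp (-0.22) and Dhcr7 (-0.21), which act between lanosterol and cholesterol. Hsd17b7, a keto reductase, averaged 9.11 ± 0.11 in KO (SD, n = 4) and 9.85 ± 0.12 in WT (SD, n = 5) at 0 min (limma adjusted p = 1.24e-06). Over all times 7 of 13 were lower in KO (25.6% of all probe sets) and 0 higher (27.3% of all), with a median of -0.13 against -0.01 for all. Msmo1, the sterol methyl oxidase, fell in WT over 120 min by 0.36 (adjusted p = 0.003), and its slope was -0.12 in KO and -0.19 in WT. For the slope difference 0 of 13 were called and 0 had an unadjusted p under 0.05.

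Of 9 tested genes for SREBP processing and sterol sensing, 3 were higher and 3 lower in KO over all times, near the 27.3% and 25.6% of all probe sets. Srebf1, which encodes SREBP1, was higher in KO (0.22 at 0 min, limma adjusted p = 0.0202), as was the protease gene Mbtps1 (0.18 at 0 min, adjusted p = 0.00194), and the SREBP escort gene Scap was lower over all times by 0.13. Rnf139, a ubiquitin ligase of the endoplasmic reticulum, fell by 1.00 in KO and by 1.22 in WT over 120 min. For the slope difference 0 of 9 were called, with 2 above 0 at an unadjusted p under 0.05. Of 12 fatty acid synthesis genes driven by SREBP, 8 were lower in KO over all times (25.6% of all probe sets), led by Fads1 (-0.40), Scd1 (-0.36) and Elovl6 (-0.28), and 1 was higher (27.3% of all), the fatty acid synthase gene Fasn (0.19).

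Among 9 genes of sterol transport and storage, 2 were higher in KO at 0 min, where 13.4% of all probe sets were, and 3 lower, where 11.9% were. Vldlr, a lipoprotein receptor, had the highest difference: it averaged 10.36 ± 0.40 in KO (SD, n = 4) and 8.69 ± 0.05 in WT (SD, n = 5), a 3.19-fold higher signal in KO (limma adjusted p = 2.88e-12). Lipa, the lysosomal acid lipase, was lower by 0.67 (adjusted p = 1.5e-09) and the receptor Lrp1 by 0.29. Of 5 genes listed for cholesterol efflux and LXR signalling, 2 were tested. Abca1, the exporter of cellular cholesterol, averaged 10.35 ± 0.17 in KO (SD, n = 4) and 9.12 ± 0.19 in WT (SD, n = 5) at 0 min (adjusted p = 4.51e-13). Mylip, a ubiquitin ligase for lipoprotein receptors, averaged 8.66 in KO and 8.40 in WT at 0 min. This WT mean lay below the lowest array median of 8.47, so the filter may have kept Mylip for its KO arrays alone. The higher KO value of Mylip, by 0.25, is given as a description. In each of these 3 lists 0 genes were called for the slope difference, with 1 of sterol transport and storage below 0 at an unadjusted p under 0.05 and 0 in the other two.

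By Pearson's correlation over the 10 group means, given as a description across groups of shared arrays, the genes of the 8 were not all alike. The highest values among their leading probe sets were 0.89 for Sqle with Fdft1, 0.88 for Idi1 with Lss and 0.81 for Idi1 with Insig1. Hmgcs1 correlated with Sqle at 0.50 and with Srebf2 at -0.70. The gene with the profile most like each was Ifrd1 for Hmgcs1 (0.98), Coq10b for Sqle (0.99), Adgrg6 for Idi1 (0.99), Rsrp1 for Lss (0.95), Csnk1d for Fdft1 (0.94), Sod1 for Insig1 (0.92), Tnfrsf11b for Srebf2 (0.90) and Dnajc3 for Cyp51 (0.84). The group means of Cyp51, Insig1 and Srebf2 had SDs of 0.05, 0.06 and 0.06, under their mean SDs within groups (0.14, 0.17 and 0.13). Idi1, Lss and Fdft1 also varied less between group means than within groups. Correlations of such narrow profiles say little.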

How the data were processed

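Per the labels' protocols, each array received 15 µg of labelled cRNA made from 1 µg of total RNA. Images were processed by GeneChip Operating Software 1.2.0.037, per the same source. The values as deposited by the authors are log2 signals, 1 for each probe set and array. The log base was inferred from their range, up to 13.43. Probe summary, background correction and normalization are unstated in the labels, and the deposited scaling was kept. The number of arrays limits the precision, and no scan batches are given.

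From the 45101 probe sets, 64 controls were left out, as were probe sets that exceeded the array median in fewer than 4 arrays, which left 27500. limma 3.58.1 in R 4.3.3 was fitted to all 48 arrays by robust empirical Bayes with the prior variance following the mean signal, once with a slope on hours per line and once with a mean per group. The scripts were tested on simulated data. Errors of effects are SE and those of group means SD.

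Experiment numbers pair the lines by design. Over 23 KO and WT pairs of the same number and time, deviations from group means correlated with a median of 0.17 (-0.25 to 0.60), against -0.07 for other numbers. The fit without the block is the main one. Alternatives were the block, leaving out each experiment, experiments 1 to 3 or 4 and 5 alone, background subtraction (5th percentile, offset of 50), quantile normalization, no filter, plain empirical Bayes and slopes without 0 min.

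The 8 genes, the gene lists, the markers and the motifs were chosen with earlier results of these data known, and the motifs after the promoters were seen. All probe sets of the 8 genes are named, and of each list up to 4 genes per comparison, those with the largest effects past the threshold. For each gene the most alike gene was sought among those with an SD over the group means of at least 0.15.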

Additional observations from a re-analysis of the deposited data

Results flagged for a closer look

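Of 180 groups of arrays examined for the 18 probe sets, 11 held an array apart from the others of its group, where chance gives about 1 in 20. In 5 of the 11 it was a KO array of experiment 1, high for Hmgcs1. At 120 min that array read 12.063 for 1433443_a_at (nearest 11.749), 12.065 for 1433444_at (nearest 11.79) and 12.25 for 1433445_x_at (nearest 11.96). The KO array of experiment 1 at 90 min read 12.01 for 1433443_a_at (nearest 11.76), and the one at 30 min read 11.53 for 1433446_at (nearest 11.06). For Insig1, KO at 90 min in experiment 3 read 10.47 (nearest 10.71) and WT at 30 min in experiment 5 read 10.46 (nearest 10.71). In KO at 0 min, experiment 4 read 11.14 for Idi1 1423804_a_at (nearest 10.67) and 11.24 for Cyp51 1450646_at (nearest 11.00). For the dim Hmgcs1 probe set 1441536_at, KO at 90 min in experiment 2 read 8.41 (nearest 8.54). Fdft1 1448130_at read 10.18 in WT at 120 min in experiment 2 (nearest 10.55).

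For Hmgcs1 the slope difference, KO minus WT, was called for 1433443_a_at (0.19), 1433444_at (0.18) and 1433445_x_at (0.17 log2 per h). With 1 experiment left out these stayed called in 1, 2 and 2 of 5 fits. They were not called with quantile normalization or without the 0 min arrays. The bright probe set 1433446_at was not called (0.25), nor was any of the 18 for the difference in the 120 minus 0 min change.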

How the results depend on the processing

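Of 2628 values of single probe sets under the alternatives, 2507 kept their direction and side of the threshold or stayed uncalled, 60 became past the threshold, 56 ceased to be and 5 turned round. Those 5 were Lss 1420013_s_at over all times in experiments 4 and 5 (0.0201), Fdft1 1438322_x_at (0.14) and 1448130_at (0.21) over all times in experiments 4 and 5, and the KO and WT slopes of Hmgcs1 1441536_at without 0 min (0.0091 in KO and 0.0106 in WT). Of 2032 values not called in the main analysis, 174 changed sign and were still not called.

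The count of probe sets called for the slope difference (3) was 0 to 3 when 1 experiment was left out, and 0 in experiments 1 to 3, with quantile normalization and without 0 min. The KO slope (2 called) gave 7 with the replicate block, 5 in experiments 4 and 5, 5 with quantile normalization, 1 without 0 min and 2 to 4 with 1 experiment left out. The difference at 0 min (5) gave 8 with the block and 3 to 6 with 1 experiment left out. The KO change over 120 min (2) gave 5 with the block and 2 to 4 with 1 experiment left out. The WT change over 30 min (1) gave 0 in experiments 1 to 3 and 2 in experiments 4 and 5. The difference in the 120 min change (0) gave 4 with the block and 1 in experiments 4 and 5. An alternative chosen after seeing the data, line and experiment as a random block (correlation 0.32 for slopes, 0.34 for group means), gave 7 for the KO slope, 4 for the KO change over 120 min and 4 for the difference in the 120 min change. Over all times (12) it gave 9, without Hmgcs1 1433443_a_at, Lss 1420013_s_at and Srebf2 1452174_at, experiments 4 and 5 gave 9, and leaving out 1 experiment gave 9 to 12. The causes were not tested. Experiments 4 and 5 alone hold 1 KO array at 0 min and 1 at 60 min, and signals near 8.13 are compressed.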

Other observations

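The mean of the 8 centred leading profiles was most like Ebf3 (0.98), Mknk1, Kif16b, Hspa1b and Per2 (0.98) over the 10 group means. That mean profile was narrow too, with an SD of 0.08. After actinomycin D the desaturase genes Fads1 and Fads2 gained signal relative to the arrays in both lines, Fads2 by 0.24 in KO (limma adjusted p = 0.0305) and 0.25 in WT (adjusted p = 0.0182). Stard4, a sterol carrier gene, fell by 0.52 in WT over 120 min (adjusted p = 0.00703). In KO it averaged 9.861 at 0 min and 9.675 at 120 min, a change that was not called. The line difference in this change was called for 0 of the 9 genes of sterol transport and storage, Stard4 among them.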
